A study of Mus musculus with 9 samples.

Results

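Fatty acid oxidation is the main way in which a fasting liver burns fat, and ketogenesis turns the product into fuel for other organs. The gene set described here held 37 genes of mitochondrial and peroxisomal beta-oxidation, ketone body metabolism and the PPAR-alpha response. It was chosen by name, with earlier results of these data known, and all 37 were found among the 21470 genes of the deposited expression table. Bulk RNA sequencing had been carried out on mouse liver, in 3 groups of 3 libraries each. The first group, labelled LIG20, underwent bile duct ligation and received ligustilide, a phthalide found in Angelica and Ligusticum roots. The second, labelled BDL, underwent bile duct ligation without the compound. The third, labelled sham, underwent the sham procedure. Bile duct ligation blocks bile flow and leads to cholestasis and fibrosis, so the LIG20 and BDL groups share the operation. The study's design text gives the ligustilide dose as 10 mg/kg, whereas the sample titles carry the number 20 without a unit, and the dose was not settled here. The sources used here do not give strain, sex, age or the time after surgery. Nothing in the labels says that the libraries of a group came from separate mice, so the p-values below measure only the spread between these libraries.

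Long-chain fatty acids are activated to acyl-CoA by acyl-CoA synthetases and enter the mitochondrion through the carnitine shuttle. There an acyl-CoA dehydrogenase, a hydratase, a hydroxyacyl-CoA dehydrogenase and a thiolase shorten the chain in a repeating spiral, and the acetyl-CoA that results can be made into ketone bodies. Peroxisomes shorten very long and branched chains, and microsomal Cyp4a enzymes start omega oxidation from the other end of the chain. The nuclear receptor PPAR-alpha, bound by fatty acids and paired with RXR, switches on many of these genes in the liver through a DNA element called DR1, a pair of direct repeats of AGGTCA spaced by a single base.

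Promoter sequence shows where such an element could lie near the genes described below. RefSeq start sites on the GRCm38.p6 mouse assembly gave 30 promoter windows for 27 of the 37 genes, each of 300 bases with 250 before and 50 after the start. The motif sought was AGGTCA, then any base (N), then AGGTCA again, on both strands, with up to 2 mismatches in its 12 fixed letters. It was present in 3 of the 30 windows (10.0%), against 1268 of all 32851 mouse windows (3.86%). With up to 1 mismatch 1 gene window held it (3.33%, against 0.554% of all windows), and none held an exact copy (0.04% of all windows). The closest match lay in the promoter of Fabp1, the abundant fatty acid binding protein of hepatocytes, on the minus strand from base −67 with 1 mismatch. The Etfa promoter held a match with 2 mismatches on its minus strand from base −77, and Slc25a20 one with 2 mismatches on the plus strand from base +7. These stretches are printed because Fabp1 was among the genes that moved most and because the Fabp1 and Etfa matches lie before the RefSeq starts. Capitals mark the match as it reads on the strand of the gene, and a match is a description of letters, not a shown binding site.
Fabp1: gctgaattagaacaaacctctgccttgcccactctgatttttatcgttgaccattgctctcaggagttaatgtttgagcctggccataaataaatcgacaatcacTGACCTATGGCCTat
Etfa: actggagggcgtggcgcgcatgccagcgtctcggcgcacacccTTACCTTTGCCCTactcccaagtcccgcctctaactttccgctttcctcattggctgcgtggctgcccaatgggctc
The Fabp1 stretch is chr6:71199707-71199826 on the plus strand, bases −172 to −53 of the RefSeq start. GENCODE vM21 places that start 52 bases further upstream. The Etfa stretch is chr9:55512244-55512363 on the minus strand, bases −120 to −1.

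Hadha and Hadhb encode the alpha and beta subunits of the mitochondrial trifunctional protein and are transcribed away from each other. On chromosome 5 their RefSeq starts lie at 30154980 (Hadha, minus strand) and 30155253 (Hadhb, plus strand), with 272 bases between them. The stretch below is the part of that interval that no GENCODE vM21 exon of either gene covers. The promoter windows of both genes share 228 bases, and the capitals mark the 68 of these that fall in the printed stretch. No DR1 match was found in either window.
Hadhb: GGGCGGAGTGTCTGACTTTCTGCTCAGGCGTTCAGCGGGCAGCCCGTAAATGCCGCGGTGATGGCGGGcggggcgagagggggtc
It is chr5:30155163-30155247 on the plus strand of GRCm38.p6, bases −90 to −6 of the Hadhb start.

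Values are FPKM, the deposited fragment counts scaled to gene length and library depth, and differences are given on the log2(FPKM + 1) scale with the standard error of the fit; this scale understates the change of low genes. Each library held 34826306 to 40791942 fragments counted in genes, as recovered from the FPKM steps, and 10142 genes reached at least 1 FPKM in at least 3 libraries and were tested with limma, all 37 genes of the set among them. A gene is said to rise or fall where its Benjamini-Hochberg adjusted p over the 10142 genes was under 0.05. Pairs of libraries correlated at 0.983 to 0.988 in the LIG20 group, 0.993 to 0.996 in the BDL group and 0.964 to 0.989 in the sham group, where library 1 stood apart. Hepatocyte markers summed to 37772 to 46545 FPKM in LIG20 livers, 32444 to 39780 FPKM in BDL livers and 57950 to 64450 FPKM in sham livers. Of the 8 hepatocyte markers, Ttr and Apoa2 fell in BDL against sham livers, Tat rose and 5 were not called. Markers of cholangiocytes, the cells that line bile ducts, summed to 210 to 451 FPKM in LIG20 livers, 403 to 597 FPKM in BDL livers and 19.3 to 35.4 FPKM in sham livers, and all 5 of them rose in BDL against sham livers. Most of that sum was Spp1, which averaged 314 FPKM in LIG20 livers, 472 FPKM in BDL livers and 21.5 FPKM in sham livers. None of the 5 was called in LIG20 against BDL livers, with differences from −0.67 (Spp1) to 0.40 (Sox9). Macrophage markers summed to 335 to 680 FPKM in LIG20 livers, 292 to 403 FPKM in BDL livers and 63.1 to 91.6 FPKM in sham livers, with 5 of 5 called higher in BDL against sham. Stellate cell and fibroblast markers summed to 87.8 to 173 FPKM in LIG20 livers, 60.5 to 72.7 FPKM in BDL livers and 12.9 to 35.3 FPKM in sham livers, and 3 of 6 rose in BDL against sham livers. Of all 10142 tested genes, 22.9% rose and 6.76% fell in BDL against sham livers. In whole liver, fewer cells of a type and less RNA per cell cannot be told apart, and the part of these markers in the results below was not tested.

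Fabp1 alone decided much of the set's total. The 37 genes summed to 2706, 4733 and 2839 FPKM in LIG20 livers, 2889, 2919 and 2947 FPKM in BDL livers and 12856, 11490 and 14135 FPKM in sham livers. Fabp1 made up 24.8% of the mean sum in LIG20 livers, 22.7% in BDL livers and 72.3% in sham livers. The other 36 genes summed to 2576 ± 258 FPKM in LIG20 livers, 2257 ± 7.27 FPKM in BDL livers and 3547 ± 178 FPKM in sham livers (SD, n = 3 libraries each).

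**Figure D1:**
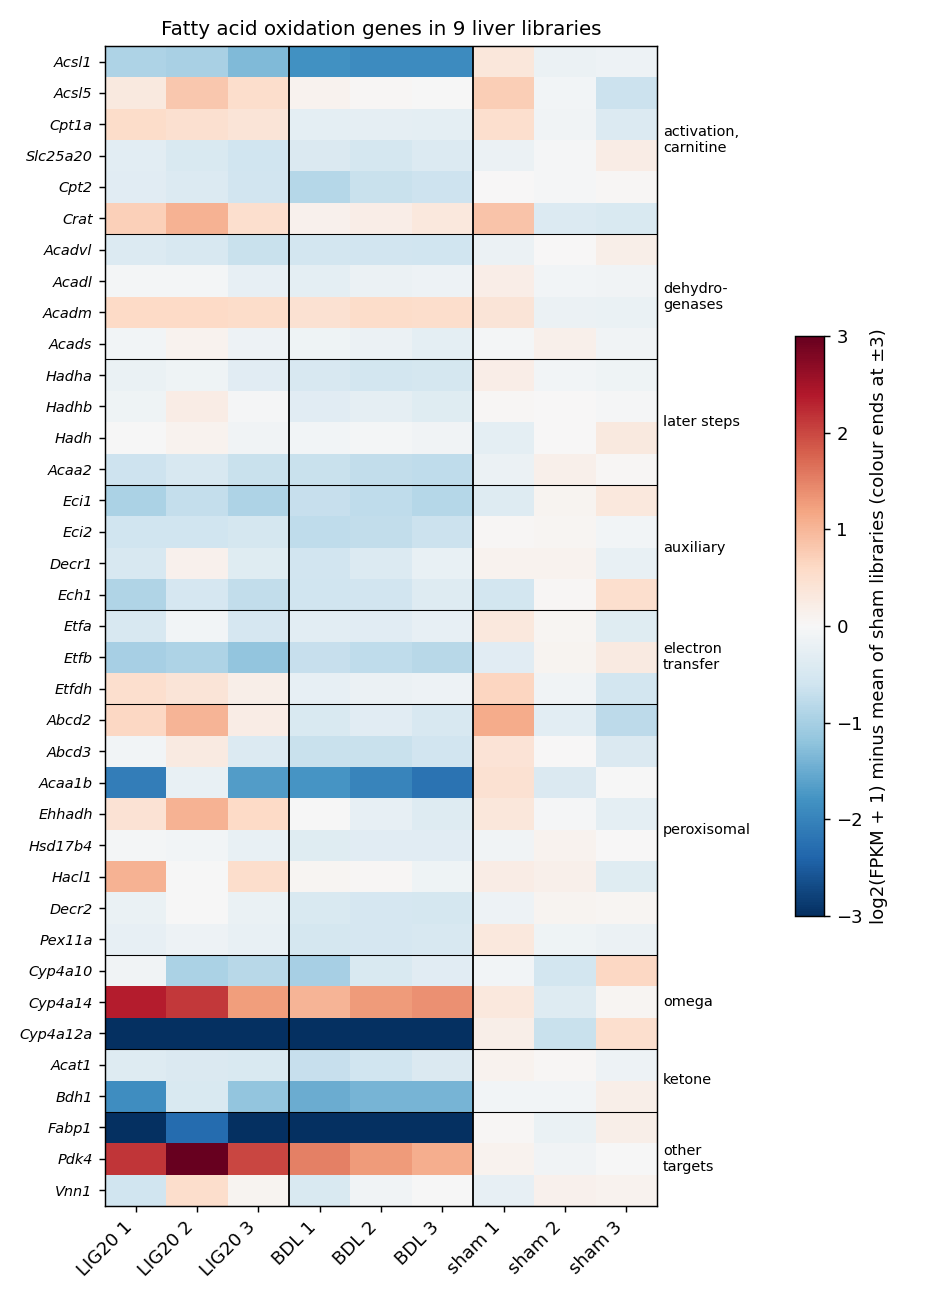
Each row is 1 of the 37 genes, grouped by role, and each column 1 of the 9 libraries; colour gives log2(FPKM + 1) minus the mean of the sham libraries, from −3 (blue) to 3 (red). Most rows are blue in the BDL columns, Cyp4a14 and Pdk4 are red in all LIG20 and BDL columns, and the shades vary more between LIG20 or sham columns than between BDL columns.

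Bile duct ligation against the sham operation was the first comparison of the design. In BDL livers 18 of the 37 genes fell and 3 rose relative to sham livers, while 16 did not pass the test; among all 10142 tested genes 6.76% fell and 22.9% rose, 29.7% in all. The median difference of the 37 genes was −0.46, against 0.16 for all tested genes. All 3 BDL libraries lay below all 3 sham libraries for 22 of the 37 genes and above them for 3, where 11.3% and 33.7% of all tested genes did so. Of the 21 calls, 16 held under every one of the 20 alternative settings and left-out libraries in which the gene was tested. Pdk4 was tested in 19 of them, since it missed the minimum mean of 5 FPKM. Of the 16 genes not called, 8 were called under some alternative. Cpt1a, Acadl, Acads, Hadhb, Decr1, Ech1 and Etfa were then lower, and Crat higher. Under median-of-ratios scaling, which moved the median of all genes to −0.06, 24 members fell and 2 rose, against 14.5% and 14.4% of all tested genes, and the members' median was −0.75.

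Of the 6 genes of activation and the carnitine shuttle, 3 fell and none rose. Acsl1, the main long-chain acyl-CoA synthetase of liver, had 23.5, 22.4 and 22.2 FPKM in BDL livers, against 108, 74.4 and 75.7 FPKM in sham livers. The groups did not overlap, and the BDL mean was 26.3% of the sham mean (log2 difference −1.86 ± 0.16, adjusted p = 2.38e-05 in limma). Cpt2, the inner-membrane carnitine palmitoyltransferase that rebuilds acyl-CoA, had 28.2, 32.2 and 33.8 FPKM in BDL livers, against 52.4, 50.8 and 53.3 FPKM in sham livers, and also fell without overlap (−0.72 ± 0.11, adjusted p = 0.00109). Slc25a20, the carnitine-acylcarnitine carrier between both transferases, had 45.9, 43.0 and 46.9 FPKM in BDL livers, against 55.3, 61.0 and 73.0 FPKM in sham livers (−0.46 ± 0.13, adjusted p = 0.0219). The call was lost when any of BDL 1, BDL 2, BDL 3 or sham 3 was left out, with an adjusted p of up to 0.0951 over the alternatives.

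Cpt1a, the outer-membrane transferase whose step controls the rate of entry, was not called. It had 49.4, 50.04 and 49.5 FPKM in BDL livers, against 86.9, 55.9 and 45.6 FPKM in sham livers, so that the BDL values were nearly identical and lay inside the wide sham range (−0.28 ± 0.19, adjusted p = 0.307). Cpt1a was called lower in limma under median-of-ratios scaling (−0.57, adjusted p = 0.0215) and with the gene length trend removed (−0.49, adjusted p = 0.0176). Acsl5, another acyl-CoA synthetase, and Crat, which moves acetyl groups to carnitine, likewise lay inside the sham range (0.04 ± 0.28 and 0.21 ± 0.31). In each of these 3 genes sham library 1 was the highest sham library.

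In the main test the first step of the mitochondrial spiral did not move one way. Acadvl, the very long chain dehydrogenase, had 106, 104 and 104 FPKM in BDL livers, against 138, 159 and 176 FPKM in sham livers, and fell without overlap (−0.58 ± 0.12, adjusted p = 0.00557). Acadm, the medium chain enzyme, had 122, 131 and 129 FPKM in BDL livers, against 115, 77.9 and 76.9 FPKM in sham livers, and was the one dehydrogenase that rose (0.52 ± 0.15, adjusted p = 0.0256). Sham library 1 lay close to the BDL values and the other sham libraries well below. The rise was lost in 9 of the 20 alternatives. They were the fits without BDL 1, BDL 2, BDL 3, sham 2 or sham 3, and median-of-ratios scaling (0.23, adjusted p = 0.219, the highest over the alternatives). The others were the fits without a filter, on the 2 compared groups alone and with the gene length trend removed. Acadl and Acads, for long and short chains, differed by −0.21 ± 0.12 and −0.20 ± 0.12 and were not called. Both were called lower in limma under median-of-ratios scaling (−0.50, adjusted p = 0.0136, and −0.48, adjusted p = 0.0474). With the gene length trend removed both were called lower as well (−0.40, adjusted p = 0.0238, and −0.38, adjusted p = 0.0295).

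Among the later steps, Hadha and Acaa2 fell. Acaa2, the thiolase that releases acetyl-CoA, was the most abundant of the set after Fabp1 and had 340.2, 323 and 320.2 FPKM in BDL livers, against 482, 599.7 and 551 FPKM in sham livers (−0.72 ± 0.13, adjusted p = 0.00194). Hadha had 65.9, 63.1 and 63.9 FPKM in BDL livers, against 107, 88.3 and 84.7 FPKM in sham livers (−0.52 ± 0.12, adjusted p = 0.00784). Both were lower in every BDL library than in any sham library. Hadhb, the partner of Hadha, which starts from the shared interval printed above, had 14.5, 15.1 and 14.2 FPKM in BDL livers, against 19.1, 18.5 and 17.9 FPKM in sham livers. Those values did not overlap either, but the difference missed the threshold (−0.32 ± 0.12, adjusted p = 0.0598). Hadh, the hydroxyacyl-CoA dehydrogenase for shorter chains, averaged 144 ± 2.00 FPKM in BDL livers and 155 ± 30.9 FPKM in sham livers (SD, n = 3 each).

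The isomerases that prepare unsaturated chains and the carriers of electrons to the respiratory chain gave 3 falls and no rise. Eci1 had 75.3, 71.6 and 67.0 FPKM in BDL livers, against 93.1, 131 and 152 FPKM in sham livers (−0.78 ± 0.17, adjusted p = 0.0063). Eci2 had 27.4, 28.05 and 30.2 FPKM in BDL livers, against 48.7, 49.2 and 44.7 FPKM in sham livers (−0.72 ± 0.10, adjusted p = 0.000498). Both enoyl-CoA isomerases were lower without overlap. Etfb, the beta subunit of electron transfer flavoprotein, had 270.1, 256 and 247 FPKM in BDL livers, against 344, 466 and 525 FPKM in sham livers (−0.77 ± 0.16, adjusted p = 0.00521). Its partner subunit Etfa differed by −0.30 ± 0.18 and Etfdh, the oxidoreductase that takes over the electrons, by −0.20 ± 0.24, and neither was called. Decr1 and Ech1, a reductase and an isomerase for unsaturated chains, were not called either (−0.40 ± 0.18 and −0.52 ± 0.23).

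Of the 8 peroxisomal genes 5 fell and none rose. Acaa1b, a peroxisomal thiolase, had 65.9, 56.4 and 48.5 FPKM in BDL livers, against 313, 167 and 224 FPKM in sham livers. That was 24.3% of the sham mean, without overlap (−1.99 ± 0.41, adjusted p = 0.00459). Its near copy Acaa1a, not one of the 37, averaged 81.2 ± 5.44 FPKM in BDL livers and 79.2 ± 5.36 FPKM in sham livers (SD, n = 3 each), and the sources used here do not say how reads were divided between the copies. Abcd3, a transporter of acyl-CoA into peroxisomes, had 26.5, 26.6 and 28.5 FPKM in BDL livers, against 56.8, 43.3 and 31.6 FPKM in sham livers (−0.63 ± 0.21, adjusted p = 0.047). Decr2, the peroxisomal dienoyl-CoA reductase, had 66.4, 64.5 and 64.0 FPKM in BDL livers, against 82.9, 98.1 and 96.0 FPKM in sham livers (−0.50 ± 0.11, adjusted p = 0.00765). Pex11a, which promotes peroxisome division, had 16.3, 16.7 and 17.0 FPKM in BDL livers, against 30.1, 21.7 and 21.2 FPKM in sham livers (−0.50 ± 0.14, adjusted p = 0.0196). These 3 genes also fell without overlap.

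Hsd17b4, the D-bifunctional enzyme, had 90.0, 91.2 and 90.3 FPKM in BDL livers, against 108, 123 and 116 FPKM in sham livers, the smallest of the called falls (−0.35 ± 0.10, adjusted p = 0.0306). The calls for Abcd3, Hsd17b4 and Pex11a were each lost when any one BDL library was left out, that for Abcd3 also without LIG20 1, sham 1 or sham 2, and that for Hsd17b4 also without sham 2. Over all alternatives their adjusted p reached 0.125, 0.111 and 0.0906. Ehhadh, the L-bifunctional enzyme and a classical PPAR-alpha target, was not called (−0.22 ± 0.20, adjusted p = 0.441). Nor were Abcd2, a transporter near 1 FPKM in BDL livers, or Hacl1, which splits branched chains (−0.42 ± 0.40 and −0.02 ± 0.24).

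The 3 Cyp4a genes of omega oxidation split. Cyp4a12a, the male-typical fatty acid hydroxylase of mouse, had 14.5, 12.6 and 12.1 FPKM in BDL livers, against 188, 104 and 237 FPKM in sham livers. It fell to 7.42% of the sham mean (−3.58 ± 0.25, adjusted p = 5.95e-06). Cyp4a14 went the other way, with 22.9, 27.5 and 29.2 FPKM in BDL livers, against 13.7, 7.94 and 11.2 FPKM in sham livers, and rose without overlap (1.23 ± 0.27, adjusted p = 0.00715). Cyp4a10 had 22.7, 33.5 and 36.5 FPKM in BDL livers, against 43.9, 31.3 and 72.0 FPKM in sham livers, overlapping values that were not called (−0.60 ± 0.31, adjusted p = 0.181). Close copies of these genes share sequence, so their division of reads is uncertain. The copy Cyp4a12b also fell, with 18.8, 18.7 and 19.8 FPKM in BDL livers, against 60.6, 34.5 and 63.1 FPKM in sham livers (−1.37 ± 0.35, adjusted p = 0.0145).

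Both ketone body genes fell. Bdh1, which converts acetoacetate and beta-hydroxybutyrate into each other, had 20.8, 22.2 and 22.3 FPKM in BDL livers, against 57.1, 56.8 and 68.1 FPKM in sham livers. The BDL mean was 35.9% of the sham mean (−1.43 ± 0.28, adjusted p = 0.00348). Acat1, the mitochondrial acetoacetyl-CoA thiolase, had 44.2, 47.4 and 52.5 FPKM in BDL livers, against 77.9, 74.2 and 64.1 FPKM in sham livers, also without overlap (−0.57 ± 0.11, adjusted p = 0.0041).

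Of the 3 remaining genes of the PPAR-alpha response, 1 fell and 1 rose, and each gave the largest difference of the set in its direction. Fabp1 had 624, 668 and 691 FPKM in BDL livers, against 9392, 8063 and 10384 FPKM in sham livers, a mean of 7.12% of sham (−3.80 ± 0.62, adjusted p = 0.00129). Pdk4, the kinase that shuts pyruvate out of the mitochondrial oxidation, had 2.40, 1.90 and 1.55 FPKM in BDL livers, against 0.287, 0.123 and 0.199 FPKM in sham livers. It rose, at low levels throughout, with 338, 267 and 186 recovered fragments in the BDL libraries and 36, 15 and 24 in the sham libraries (1.29 ± 0.25, adjusted p = 0.00389). No sham library reached the 1 FPKM of the filter, which Pdk4 passed only through the LIG20 and BDL libraries. Vnn1, a pantetheinase, averaged 8.09 ± 1.43 FPKM in BDL livers and 9.39 ± 1.42 FPKM in sham livers (SD, n = 3 each), within the spread of the libraries.

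**Figure D2:**
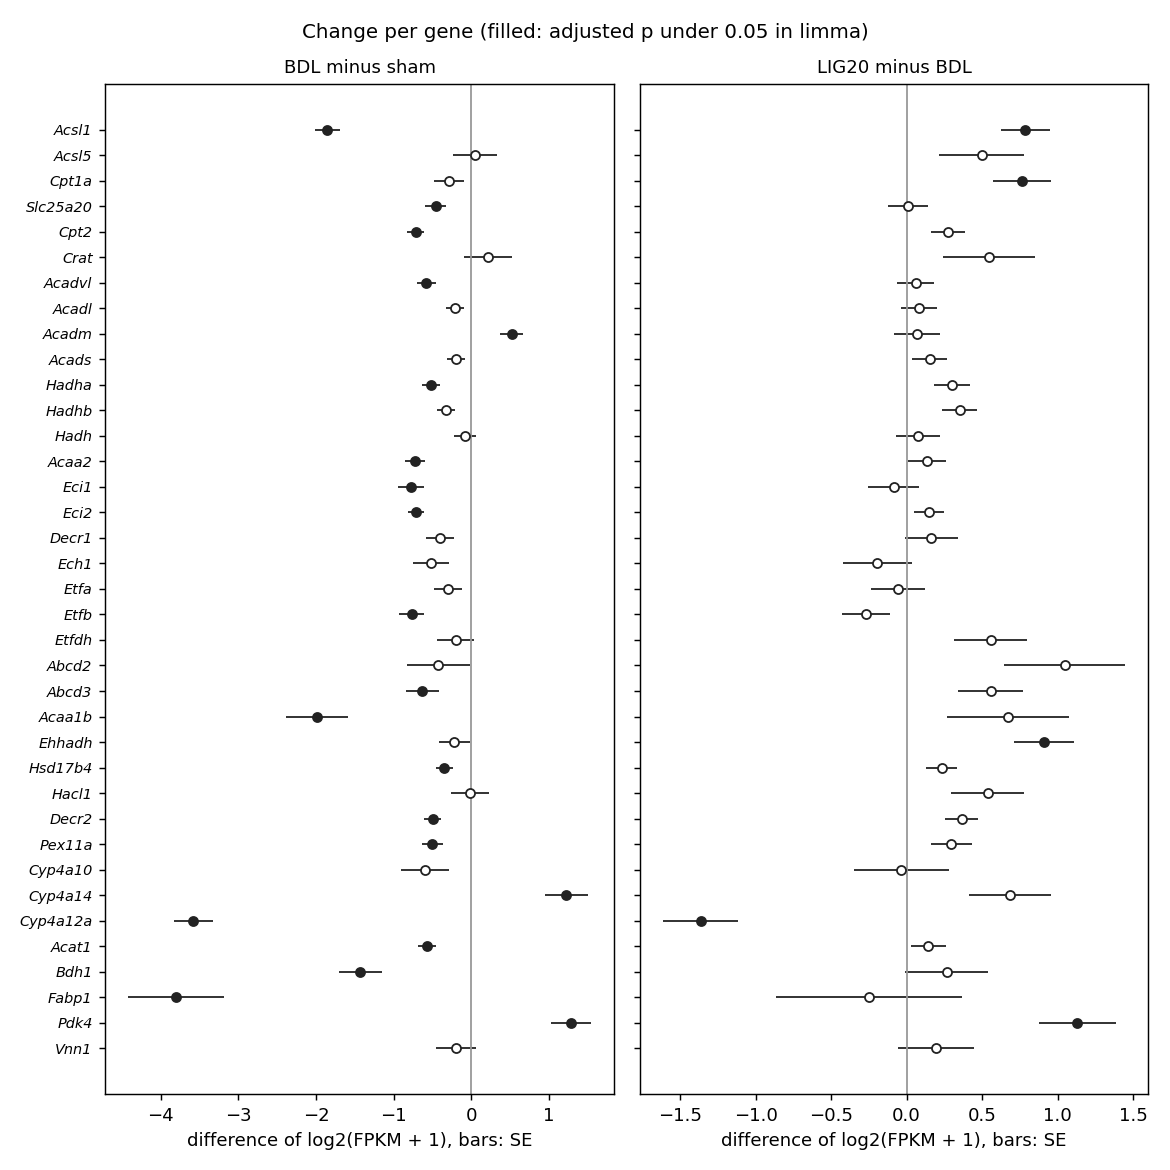
Points give the difference of log2(FPKM + 1) for each of the 37 genes, BDL minus sham on the left and LIG20 minus BDL on the right, with bars of 1 SE; filled points had an adjusted p under 0.05 in limma. On the left 21 points are filled, from −3.80 (Fabp1) to 1.29 (Pdk4); on the right 5 are, from −1.36 (Cyp4a12a) to 1.13 (Pdk4). Both panels rest on the same BDL libraries and their horizontal scales differ.

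Ligustilide was compared with bile duct ligation alone. In LIG20 livers 4 of the 37 genes rose, namely Acsl1, Cpt1a, Ehhadh and Pdk4, Cyp4a12a fell, and 32 did not pass the test; among all tested genes 9.98% rose and 1.79% fell, 11.8% in all. The median difference of the 37 genes was 0.23, close to the 0.18 of all tested genes, and under median-of-ratios scaling both medians were −0.03. All LIG20 libraries lay above all BDL libraries for 17 of the 37 genes and below for 2, where 40.7% and 10.5% of all tested genes did so. The shares of members were near those of the whole table. Each of the 5 calls was lost when BDL 1, BDL 2 or BDL 3 was left out, and those limma fits made 40, 0 and 54 calls over all genes, with 2236, 2317 and 2595 genes and 7, 8 and 10 members at an unadjusted p under 0.05. Without sham 1, which enters only through the shared estimate of spread, 13 members rose and 1 fell, where 25.9% of all tested genes rose and 5.10% fell.

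Acsl1 had 43.9, 42.8 and 33.5 FPKM in LIG20 livers, against 23.5, 22.4 and 22.2 FPKM in BDL livers. All LIG20 values were higher, and the mean was 177% of the BDL mean (0.79 ± 0.16, adjusted p = 0.0197). The call was also lost without LIG20 2, under median-of-ratios scaling (0.52, adjusted p = 0.0573) and with the gene length trend removed (0.44, adjusted p = 0.0569). Over all alternatives the adjusted p reached 0.0891. Cpt1a had 89.2, 85.5 and 80.1 FPKM in LIG20 livers, against 49.4, 50.04 and 49.5 FPKM in BDL livers, with little spread in either group (0.76 ± 0.19, adjusted p = 0.034). For Cpt1a the call was lost in 9 of the 20 alternatives, among them each fit without a LIG20 or BDL library and median-of-ratios scaling, with an adjusted p of up to 0.119. The remaining shuttle genes were not called: Acsl5 differed by 0.50 ± 0.28, Crat by 0.54 ± 0.31, Cpt2 by 0.27 ± 0.11 and Slc25a20 by 0.01 ± 0.13. The 6 genes of activation and carnitine transfer summed to 303 ± 22.6 FPKM in LIG20 livers, 214 ± 1.68 FPKM in BDL livers and 332 ± 67.0 FPKM in sham livers (SD, n = 3 each).

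Of the peroxisomal genes, Ehhadh rose, with 70.5, 107 and 79.7 FPKM in LIG20 livers, against 51.6, 43.5 and 39.3 FPKM in BDL livers (0.91 ± 0.20, adjusted p = 0.0224). Its call was lost in 7 of the 20 alternatives, with an adjusted p of up to 0.093. Among them were those without LIG20 2, LIG20 3 or any one BDL library, and median-of-ratios scaling (0.65, adjusted p = 0.0584). The other 7 peroxisomal genes had positive differences that were not called, from 0.23 ± 0.10 for Hsd17b4 to 1.05 ± 0.40 for Abcd2. Abcd2 had 2.96, 4.24 and 1.98 FPKM in LIG20 livers, against 0.880, 1.02 and 0.845 FPKM in BDL livers. Those groups did not overlap, yet the adjusted p was 0.105. As a sum the 8 genes gave 512 ± 97.6 FPKM in LIG20 livers, 344 ± 17.3 FPKM in BDL livers and 609 ± 88.8 FPKM in sham livers (SD, n = 3 each).

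No gene of the mitochondrial spiral, the auxiliary enzymes, electron transfer or ketone bodies was called between LIG20 and BDL livers, and 3 of these 17 genes (Hadha, Hadhb and Etfdh) had an unadjusted limma p under 0.05, as did 31.8% of all tested genes. Acadm had 134, 135 and 131 FPKM in LIG20 livers, against 122, 131 and 129 FPKM in BDL livers (0.07 ± 0.15, adjusted p = 0.776). Hadha had 80.7, 84.4 and 73.6 FPKM in LIG20 livers, against 65.9, 63.1 and 63.9 FPKM in BDL livers, and Hadhb had 17.0, 21.8 and 18.2 FPKM in LIG20 livers, against 14.5, 15.1 and 14.2 FPKM in BDL livers. Both partners were higher without overlap, by 0.30 ± 0.12 and 0.35 ± 0.12, with adjusted p of 0.112 and 0.0722. Etfb had the one difference below −0.2 among these genes, with 220.2, 229 and 193 FPKM in LIG20 livers, against 270.1, 256 and 247 FPKM in BDL livers (−0.27 ± 0.16, adjusted p = 0.27). Acat1 differed by 0.14 ± 0.11 and Bdh1 by 0.26 ± 0.28. For Bdh1 the LIG20 libraries ran from 15.8 to 44.0 FPKM and enclosed the BDL values.

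Cyp4a12a fell further under ligustilide, with 4.63, 5.08 and 3.76 FPKM in LIG20 livers, against 14.5, 12.6 and 12.1 FPKM in BDL livers. The LIG20 mean was 34.3% of the BDL mean (−1.36 ± 0.25, adjusted p = 0.0145). These values rested on 449, 485 and 361 fragments in the LIG20 libraries and 1436, 1241 and 1024 in the BDL libraries. Of the 20 alternatives, the 3 fits that left out a BDL library lost this call, with an adjusted p of up to 0.0691. Cyp4a14 had 59.4, 49.8 and 26.9 FPKM in LIG20 livers, against 22.9, 27.5 and 29.2 FPKM in BDL livers, and library LIG20 3 lay inside the BDL range (0.69 ± 0.27, adjusted p = 0.114). Cyp4a10 had 43.1, 23.4 and 25.5 FPKM in LIG20 livers, against 22.7, 33.5 and 36.5 FPKM in BDL livers, with no separation (−0.03 ± 0.31).

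Pdk4 rose again, with 4.28, 9.28 and 3.83 FPKM in LIG20 livers, against 2.40, 1.90 and 1.55 FPKM in BDL livers (1.13 ± 0.25, adjusted p = 0.0241). The LIG20 libraries held 592, 1264 and 525 Pdk4 fragments. Its call was lost in 5 of the 19 alternatives that tested it, the 3 without a BDL library among them, with an adjusted p of up to 0.0945. Removal of the gene length trend (0.91, adjusted p = 0.0563) and the limma fit without a filter (1.13, adjusted p = 0.0737) also lost it. Fabp1 had 189, 1874 and 486 FPKM in LIG20 livers, against 624, 668 and 691 FPKM in BDL livers. Library LIG20 2 lay above all BDL libraries and the other LIG20 libraries lay below them, and the difference of −0.25 ± 0.62 was not called (adjusted p = 0.804).

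**Figure D3:**
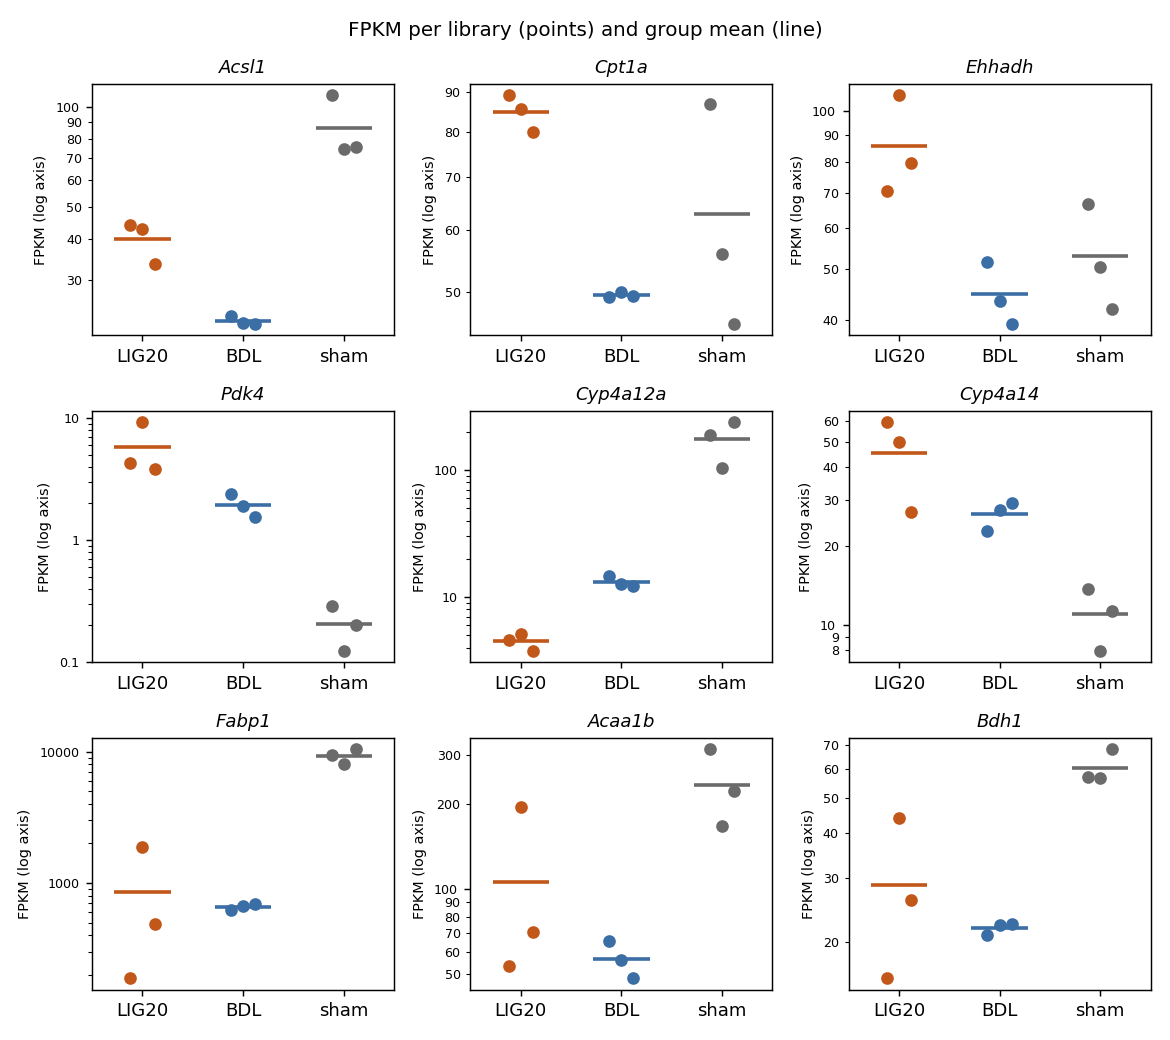
FPKM of 9 of the genes in each library (points) with the group mean (line), on log axes that differ between panels; LIG20 is left, BDL in the middle and sham right. Acsl1, Cpt1a, Ehhadh and Pdk4 are higher in every LIG20 than in any BDL library, Cyp4a12a is lower, and Fabp1, Acaa1b and Bdh1 spread widely among the LIG20 libraries.

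Endothelial markers summed to 23.1 to 31.2 FPKM in LIG20 livers and 10.6 to 11.5 FPKM in BDL livers. All 5 rose, where 9.98% of all tested genes did so. The macrophage marker Adgre1 (1.41, adjusted p = 0.0169) and the stellate cell marker Lrat (0.93, adjusted p = 0.0317) rose as well, each alone in its list. Of the 8 hepatocyte markers none was called in this comparison, and 2 (Hnf4a and Apoa2) had an unadjusted p under 0.05. The part of these markers in the differences between LIG20 and BDL livers was not tested. Adipoq and Retn, markers of fat, and Ckm, Acta1 and Tnnt3, markers of skeletal muscle, reached at most 0.0954 FPKM in any library. Cidea, found in fat, reached 1.01 FPKM.

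LIG20 livers were also set against sham livers, which differ by both the operation and the compound. Of the 37 genes 14 fell and 4 rose, against 8.92% and 43.7% of all tested genes (52.6% in either direction), and 19 were not called. The median difference was −0.21 in the set and 0.34 in all tested genes. All LIG20 libraries lay below all sham libraries for 13 genes and above them for 4, where 9.71% and 45.7% of all genes did so. Under median-of-ratios scaling the counts were 25 lower and 2 higher, where 27.3% of all tested genes fell and 21.2% rose. Without sham 1 they were 14 lower and 9 higher, where 12% fell and 56.3% rose. This comparison shares its LIG20 and sham libraries with the previous ones, so its values are given beside them and not as separate evidence.

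The 4 genes that rose against sham were Pdk4 (2.41 ± 0.25, adjusted p = 5.02e-05), Cyp4a14 (1.91 ± 0.27, adjusted p = 0.000285), Ehhadh (0.69 ± 0.20, adjusted p = 0.0142) and Acadm (0.59 ± 0.15, adjusted p = 0.00807). The LIG20 mean of Pdk4 was 28.6 times the sham mean, which at 0.203 FPKM lay under the 1 FPKM of the filter. For Ehhadh the sham libraries had 66.4, 50.4 and 42.0 FPKM, below all LIG20 libraries. The calls for Acadm and Ehhadh were lost under median-of-ratios scaling and with the length trend removed, that for Ehhadh also without LIG20 2 or sham 3, and their adjusted p reached 0.841 and 0.536. Cyp4a12a fell most, to 2.54% of the sham mean (−4.94 ± 0.25, adjusted p = 1.14e-06). Fabp1 was next, and even the highest LIG20 library, at 1874 FPKM, lay far below the lowest sham library at 8063 FPKM (−4.05 ± 0.62, adjusted p = 0.000426).

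Acsl1 was higher in LIG20 than in BDL livers but still lower than in sham livers (−1.07 ± 0.16, adjusted p = 0.000402). Etfb was lower than in sham livers by a similar margin (−1.04 ± 0.16, adjusted p = 0.000474), as were Bdh1 (−1.17 ± 0.28, adjusted p = 0.00539) and Acaa1b (−1.32 ± 0.41, adjusted p = 0.0194). For Acaa1b the groups overlapped, with means of 107 ± 77.6 FPKM in LIG20 livers and 235 ± 73.7 FPKM in sham livers (SD, n = 3 each). The remaining 8 falls ran from −0.86 ± 0.17 for Eci1 to −0.43 ± 0.11 for Acat1 and took in Acaa2, Ech1, Eci2, Acadvl, Cpt2 and Slc25a20. Ech1 had 156, 206 and 173 FPKM in LIG20 livers, against 199, 298 and 413 FPKM in sham livers, and its groups overlapped (−0.71 ± 0.23, adjusted p = 0.0237). The call for Ech1 was lost without LIG20 1, LIG20 3, sham 2 or sham 3, that for Acaa1b without LIG20 1 or LIG20 3, and that for Slc25a20 without LIG20 3. Over all alternatives their adjusted p reached 0.078, 0.0749 and 0.14. In TPM the calls for Acat1 (−0.20, adjusted p = 0.25), Cpt2 (−0.21, adjusted p = 0.172) and Slc25a20 were lost. Cpt1a, not called here, had a LIG20 mean of 84.9 FPKM and a sham mean of 62.8 FPKM (0.48 ± 0.19, adjusted p = 0.0588). It was called without sham 1 (0.74, adjusted p = 0.000368), in TPM (0.72, adjusted p = 0.0198) and with the replicate block (0.48, adjusted p = 0.0457), and its adjusted p reached 0.864 over the alternatives.

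**Figure D4:**
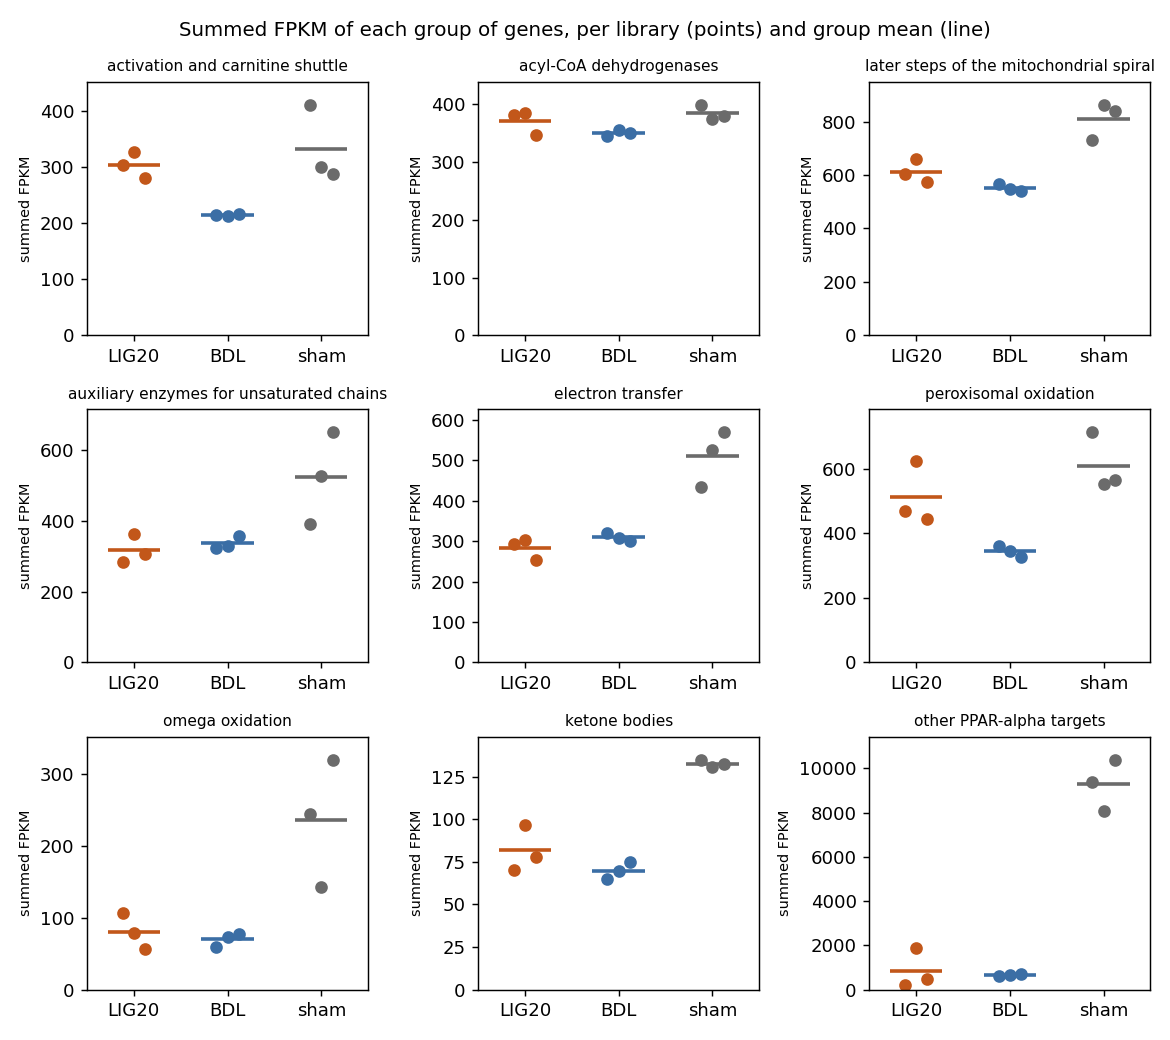
Summed FPKM of the genes of each role, per library (points) with the group mean (line); every axis starts at 0. Sums for activation and carnitine transfer, later steps and peroxisomal oxidation are higher in all LIG20 than in all BDL libraries. Those for later steps, auxiliary enzymes, electron transfer, omega oxidation, ketone bodies and other PPAR-alpha targets lie below all sham libraries in both operated groups. Single genes made up most of some mean sham sums. Fabp1 gave 9280 of 9289 FPKM in other PPAR-alpha targets, Cyp4a12a 176 of 237 FPKM in omega oxidation and Etfb 445 of 510 FPKM in electron transfer. Pdk4 and Cyp4a14, members of these roles, rose against sham in both operated groups.

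The LIG20 and sham libraries disagreed among themselves far more than the BDL libraries did. The median SD of the 37 genes on the log2 scale was 0.18 in LIG20, 0.07 in BDL and 0.29 in sham livers, against 0.15, 0.10 and 0.25 for all tested genes. In LIG20 livers 8 genes differed by more than 2-fold between the highest and the lowest library, in BDL livers 0 did and in sham livers 8 did. Fabp1 spanned 9.93-fold among the LIG20 libraries. Library LIG20 2 was the highest of its group for 24 of the 37 genes, as it was for 53.2% of all tested genes, and LIG20 3 was the lowest for 23 genes, against 32.4% of all. Sham 1 was the highest of its group for 19 of the 37, against 58.3% of all tested genes.

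A wider list of 67 pathway genes outside the set, of which 63 could be tested, gave 7 rises and 23 falls in BDL against sham livers, where 22.9% of all tested genes rose and 6.76% fell. In LIG20 against BDL livers it gave 10 rises and 1 fall, where 9.98% rose and 1.79% fell. The 26 other tested genes of oxidation and ketogenesis held 6 rises and 12 falls in BDL against sham livers, and 2 rises and 1 fall in LIG20 against BDL livers. Cd36, a fatty acid uptake receptor, rose in BDL livers, with 14.9, 18.3 and 21.0 FPKM against 2.32, 1.31 and 1.01 FPKM in sham livers (2.93 ± 0.20, adjusted p = 5.12e-06). Macrophages and endothelium also express it. Slc27a2, a fatty acid transporter and very long chain synthetase, fell (−1.12 ± 0.15, adjusted p = 0.000455). Bdh2 (−1.25 ± 0.17, adjusted p = 0.000423) and Acadsb, a dehydrogenase for short branched chains (−0.72 ± 0.12, adjusted p = 0.00177), fell as well.

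Ppara, the gene of the receptor, had 12.5, 13.6 and 12.02 FPKM in LIG20 livers, 6.55, 7.09 and 7.26 FPKM in BDL livers and 22.9, 14.9 and 10.4 FPKM in sham livers. It fell in BDL against sham livers (−1.04 ± 0.22, adjusted p = 0.00557) and rose in LIG20 against BDL livers (0.78 ± 0.22, adjusted p = 0.0458). Its partner Rxra was not called in BDL against sham livers (−0.13 ± 0.11) and rose in LIG20 livers, with 74.3, 70.4 and 65.1 FPKM against 43.3, 44.8 and 47.2 FPKM in BDL livers (0.62 ± 0.11, adjusted p = 0.0131). Of the 8 tested genes of the receptor and its cofactors, 3 rose and none fell in LIG20 against BDL livers, where 9.98% of all tested genes rose and 1.79% fell. The last of the 3 was Lpin1, a phosphatase and coactivator (1.20 ± 0.25, adjusted p = 0.0209). The rise of Ppara was lost in 13 of the 20 alternatives (adjusted p up to 0.149). Among them were each fit without a LIG20 or BDL library or without sham 2. Median-of-ratios scaling (0.54), quantile scaling (0.63) and removal of the gene length trend (0.43) also lost it. The rises of Rxra and Lpin1 were lost in 5 and 6, each without any one BDL library (adjusted p up to 0.128 and 0.0771). That of Rxra was also lost under median-of-ratios scaling (0.36, adjusted p = 0.115) and with the gene length trend removed (0.30, adjusted p = 0.128). That of Lpin1 was also lost without a filter and without LIG20 2 or LIG20 3. The coactivator Ppargc1a stayed under the test's minimum, at 0.802 to 0.919 FPKM in LIG20 livers, 0.297 to 0.452 FPKM in BDL livers and 0.138 to 0.545 FPKM in sham livers. Sirt3, the mitochondrial deacetylase, fell in BDL livers (−0.67 ± 0.12, adjusted p = 0.00215).

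Among 14 further PPAR-alpha targets, 7 fell and 1 rose in BDL against sham livers, where 6.76% of all tested genes fell and 22.9% rose. In LIG20 against BDL livers 5 rose and none fell, where 9.98% of all tested genes rose and 1.79% fell. Angptl4, a secreted lipase inhibitor, had 52.2, 62.0 and 60.6 FPKM in LIG20 livers, 39.5, 32.0 and 25.0 FPKM in BDL livers and 47.2, 38.4 and 59.3 FPKM in sham livers. It fell in BDL against sham livers (−0.57 ± 0.19, adjusted p = 0.044) and rose in LIG20 against BDL livers (0.86 ± 0.19, adjusted p = 0.0231). The fall of Angptl4 was lost in 10 of the 20 alternatives, among them those without any one LIG20 library, BDL 2, BDL 3 or sham 3 (adjusted p up to 0.182). Its rise was lost in 7, among them median-of-ratios scaling and those without LIG20 2, LIG20 3 or any one BDL library (adjusted p up to 0.134). Plin2, a lipid droplet coat protein, fell in BDL livers (−0.69 ± 0.15, adjusted p = 0.00657) and was not called in LIG20 against BDL livers (0.32 ± 0.15, adjusted p = 0.174). Cyp4a32, a close copy of Cyp4a10, and Retsat, a retinol saturase, also fell in BDL livers (−1.90 ± 0.16, adjusted p = 1.59e-05, and −1.30 ± 0.15, adjusted p = 0.000124), and so did Mgll, the monoglyceride lipase (−1.55 ± 0.28, adjusted p = 0.00226). Cyp4a32 was called higher in LIG20 against BDL livers (0.55 ± 0.16, adjusted p = 0.0463 in limma). That call was lost in 12 of the 20 alternatives, among them each fit without a LIG20 or BDL library and median-of-ratios scaling. Ucp2, a mitochondrial carrier that immune cells also express, was the 1 rise in BDL against sham livers (1.58 ± 0.29, adjusted p = 0.00265). Fgf21, a fasting hormone of liver, had 14.8 FPKM in sham 1 but 0.954 and 3.18 FPKM in the other sham libraries, and was not called against BDL livers, which had 1.04, 0.986 and 1.33 FPKM (−1.26 ± 0.58, adjusted p = 0.133). Of 15 peroxisome biogenesis genes, 2 fell in BDL livers, Pex16 (−0.70 ± 0.10, adjusted p = 0.00076) and Pex6 (−0.45 ± 0.12, adjusted p = 0.0174), and none was called in LIG20 against BDL livers, where 5 had an unadjusted p under 0.05, a share near the 31.8% of all tested genes. The call for Pex6 was lost without any one BDL library (adjusted p up to 0.0796).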

How the data were processed

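Total RNA of liver was sequenced in 9 libraries, 3 each of LIG20, BDL and sham. The authors deposited a table of FPKM values per gene; per the submitters' processing notes they used fastp, HISAT2 2.1.0, DESeq2 and the GRCm39 assembly. The sources used here do not give the counting program or gene annotation. The FPKM values proved to be whole fragments divided by length and depth: 99.99% of 19449 genes gave whole fragments within 0.02, with 34826306 to 40791942 per library.

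The main test was limma 3.58.1 in R 4.3.3 on log2(FPKM + 1), with a pseudocount of 1, all 9 libraries in 1 fit and Benjamini-Hochberg adjustment over the 10142 genes that reached 1 FPKM in 3 or more libraries. An exact permutation test of 3 against 3 libraries has a smallest two-sided p of 0.1 and was not used. Correlations between libraries are Pearson's over tested genes on the log2 scale.

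The members, lists, roles and tests were chosen with earlier results of these data known. Values per library are given for members called in at least 1 comparison and for 11 members of key steps whatever their values, and named genes of the wider lists were a few chosen by name, of which some are not reported here, and up to 4 per list with the smallest p. Gene symbols are those of the table. Promoters came from RefSeq on GRCm38.p6, matched by symbol, and exons from GENCODE vM21. The fit was repeated with pseudocounts of 0.1 or 0.5, without the filter or with one on mean FPKM (5 or more), after scaling by median of ratios, to TPM or by quantiles, with the gene length trend removed, on the 2 compared groups alone, with a replicate block, with voom on recovered fragments, and without each library in turn. Deviations of same-numbered libraries did not all correlate above 0.1 in any comparison, so the numbers were not used as pairs.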

Additional observations from a re-analysis of the deposited data

How the results depend on the processing

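Of 2214 results of single members under 20 alternatives, 1973 kept their direction and their side of the threshold, 81 passed it newly, 81 lost it and the others changed sign. Of the sign changes 77 were of members called on neither side and 2 had a call on 1 side, both of Hadhb in LIG20 against sham livers, −0.50 (adjusted p = 0.00868) under median-of-ratios scaling and −0.49 (adjusted p = 0.00974) with the gene length trend removed, against 0.03 as reported. Rxra in LIG20 against sham livers, 0.49 as reported, was −0.063 and −0.029 under these settings and no longer called; the cause was not tested. In BDL against sham livers 3 higher and 18 lower members became 2 and 24 under median-of-ratios scaling, where 14.4% of all tested genes rose and 14.5% fell. With the length trend removed they became 2 and 25, where 15.9% rose and 15.2% fell. Those scalings and quantile scaling gave a median over all genes of −0.06, −0.03 and −0.03 (0.16 as reported) and a share of higher calls of 49.9%, 51.2% and 51.9% (77.2% as reported). For LIG20 against BDL the share was 84.8% as reported, 43.7%, 48.9% and 52.0% under these and 95.2% in TPM; for LIG20 against sham it was 83.0%, then 43.7%, 49.0% and 50.3%, and 91.9% in TPM. Members called higher in LIG20 against BDL numbered 4 as reported, 1 without a filter, 1 under median-of-ratios scaling, 1 with the length trend removed, 8 in TPM, 13 with the 2 groups alone and 0 to 13 when single libraries were left out. The shares of all tested genes called higher were, in that order, 9.98%, 2.48%, 2.71%, 2.40%, 17.1%, 27.9% and 0% to 25.9%. Members called lower numbered 0 to 1, where 0% to 5.97% of all tested genes were called lower. In LIG20 against sham members called higher numbered 2 under median-of-ratios scaling, 2 with the length trend removed, 7 in TPM and 3 to 9 without single libraries, and members called lower 25 and 24 under the first 2 of these. The shares of all tested genes were, in the same order, 21.2%, 22.0%, 54.8% and 36.4% to 56.3% higher, and 27.3% and 22.9% lower. Over all genes, BDL against sham gave 3008 calls, 1838 at a mean of at least 5 FPKM, where fewer genes were tested, and 1894 to 4668 without single libraries, the highest without sham 1. LIG20 against BDL gave 1194 calls, 623 without a filter, 575 at a mean of at least 5 FPKM, 630 under median-of-ratios scaling, 2056 in TPM, 3433 with the 2 groups alone, 497 with the length trend removed and 0 to 3144 without single libraries. LIG20 against sham gave 5335 calls and 2765 at a mean of at least 5 FPKM. With the replicate block LIG20 against BDL gave 742 calls over all genes and the same 4 higher and 1 lower members. Same-numbered deviations correlated at −0.13, 0.00 and −0.08 for BDL with sham, 0.09, 0.01 and 0.11 for LIG20 with BDL, where every library correlated best with its own number, and 0.25, −0.06 and 0.29 for LIG20 with sham; the block is a hint from the data, not from the design. Pdk4 in sham livers, with 15 to 36 fragments, was the thinnest value of a member, and its ratio to sham carries that counting error.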
